A study of Mus musculus with 10 samples.

Results

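The genes described here are 36 genes of the cell cycle and of DNA replication, chosen by symbol from a list of known regulators and found, all 36, among the 24972 gene symbols of the deposited table. They were grouped by role into 8 genes of the G1/S transition, 13 of DNA replication and 15 of mitosis. RNA came from whole livers of mice, labelled with a WT genotype, that bore pancreatic tumours grown from cell lines of the KPC model, a genetically engineered mouse model of pancreatic cancer. The T cell-low group (labelled Tcell low, 4 libraries) carried the line 6419c1, whereas line 6555c3 was used for the T cell-high group (labelled Tcell high, 6 libraries). Each group therefore rests on 1 tumour line, the T cell class and the line cannot be told apart, and no tumour-free liver is among the 10 libraries. The sources used here give no age, sex or strain of the mice and no tumour site. They also do not say that each library is a separate animal, and a p-value then reflects only how far the libraries scatter, part of which may be technical.

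Cells enter the cycle when D-type cyclins with CDK4 or CDK6, and then E-type cyclins with CDK2, inactivate the retinoblastoma protein and release E2F factors. E2F targets build the replication machinery and the nucleotide supply, and a later wave of genes, held off in resting cells by the DREAM complex, drives mitosis through cyclin B and CDK1 until CDC20 and UBE2C direct cyclin destruction. Hepatocytes of adult liver are mostly quiescent, many of them polyploid, and most cycling transcripts in a resting liver come from a small share of cells. In whole tissue a smaller number of cells of a type and less RNA per cell cannot be told apart.

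Values are scaled counts, the signal per gene that the authors scaled to a common depth. Their totals ran from 7000659 to 8257373 per library. T cell-low 2, 3 and 4 (7975646 to 8257373) lay above all T cell-high libraries (7000659 to 7513620), and T cell-low 1 (7060777) lay among them. All 7 hepatocyte markers were above 0 in every library, with a summed level of 240888 to 536970, as the liver label requires. The libraries of a group were not alike. In the globin gene Hbb-bs, T cell-high 1, 3, 5 and 6 stood apart, with 3465 to 9359 scaled counts there but 16.2 to 215 in the other 6 libraries. Other globin genes overlapped: Hba-a2 had 15331 to 32670 there and 25604 to 93823 elsewhere, and Hbb-bt 657 to 1474 and 726 to 2592. T cell-low 1 lay inside the T cell-high range in several members below where T cell-low 2, 3 and 4 did not. Markers of other cell types differed as well. The summed level of 12 neutrophil markers was 659 to 1777 in T cell-low livers, against 48.6 to 239 in T cell-high livers, although Camp, Ltf, Csf3r, Elane and Mpo were at 0 in 5 or more of the 10. For 11 ductal and tumour markers it was 317 to 479 against 144 to 259, with Krt17 at 0 in all libraries and Cldn4, Tff1 and Sprr1a at 0 in 5 or more. This sum was made up mostly of Sox9 (83.1 to 401 against 75.6 to 177) and Msln (28.4 to 164 against 8.87 to 34.8). Krt19 (2.30 to 12.4 against 0.889 to 13.8) and Epcam (0.869 to 5.73 against 1.06 to 10.6) did not follow it. For 7 stellate and fibroblast markers the summed level was 3299 to 4847 against 2328 to 3245, a sum made up mostly of Dcn (2509 to 4406 against 1723 to 2706). Col3a1, Reln, Lrat and Pdgfrb did not follow it. Col3a1 had 20.6 to 154 in T cell-low livers, against 60.6 to 127 in T cell-high livers. Reln had 70.8 to 136 against 129 to 229, Lrat 59.3 to 142 against 65.2 to 194, and Pdgfrb 3.21 to 10.3 against 0.961 to 34.5. The erythroid sum was 43303 to 98407 against 19764 to 52028 (10 of 11 markers in the table, Hba-a1 and Epb42 at 0 in 5 or more). It was made up mostly of Hba-a2 (40896 to 93823 against 15331 to 50406). Hbb-bs (118 to 215 against 16.2 to 9359) and Klf1 (6.13 to 24.1 against 2.92 to 29.4) did not follow it. The part of these cells in the differences below was not tested.

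Cell cycle genes passed the test between the groups in about the same share as all genes. Of the 36 members 28 had a mean of at least 10 scaled counts and were tested. In T cell-low livers 2 rose (Ccne2 and Hmgb2), 1 fell (Tk1) and 25 did not pass limma's test at an adjusted p below 0.05. That is 10.7% of the tested members, against 12.8% of all 11110 genes tested (5.39% higher and 7.39% lower), so the share called was near the background. At an unadjusted p below 0.05 there were 9 members (32.1%), 7 of them lower and 2 higher, against 34.5% of all genes. The median log2 difference, T cell-low minus T cell-high, was -0.54 over the 28 members and 0.003 over all genes tested. Against T cell-high 2 and 4 alone it was -1.08, and with these 2 libraries left out it was -0.21. The 3 members Mcm2, Plk1 and Ube2c had a T cell-low mean below 10 and passed the filter through the T cell-high libraries, so the counts and the median describe the members that could be tested and not all 36.

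The calls over the whole table depended on the libraries. Without T cell-low 1, 2, 3 or 4 the share of genes called was 32.7%, 0.982%, 4.58% or 1.41%. Without T cell-high 1, 2, 3, 4, 5 or 6 it was 3.9%, 20.5%, 3.42%, 9.85%, 3.63% or 4.02%. It was 0.0% where T cell-high 1, 3, 5 and 6 were left out together, and 23.6% where T cell-high 2 and 4 were. On libraries 1 to 4 of each group it was 2.57% with a replicate block and 0.189% with none. Pseudocounts of 0.5 and 5 gave 12.2% and 13.7%, and no filter, a mean of at least 50 and at least 10 in 4 libraries gave 6.0%, 17.3% and 12.4%. TMM rescaling, equal totals and the robust option gave 12.7%, 13.4% and 12.6%.

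**Figure D1:**
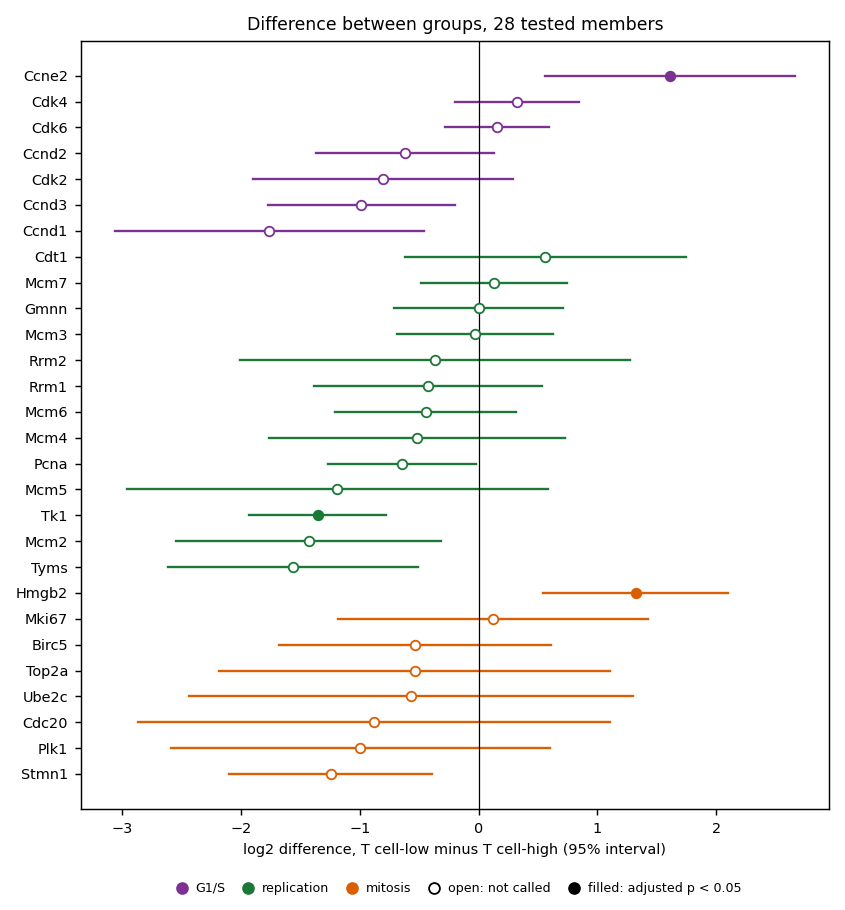
Log2 difference (T cell-low minus T cell-high) of the 28 tested members by role, with the 95% interval of the moderated test as a line; filled points are called at an adjusted p below 0.05. Ccne2 and Hmgb2 lie to the right at 1.61 and 1.32 and Tk1 to the left at -1.35, and most other intervals cross 0.

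Of 7 tested G1/S genes 1 rose, Ccne2, and 6 did not pass, a share called of 14.3% against 12.8% of all genes. Cyclin E2, the product of Ccne2, activates CDK2 at the start of S phase. Ccne2 (chromosome 4, 11191351 to 11204779) had 24.5, 63.7, 79.3 and 136 scaled counts in T cell-low 1 to 4, against 20.2, 37.5, 13.2, 33.4, 9.08 and 22.8 in T cell-high 1 to 6. T cell-low 2, 3 and 4 lay above all T cell-high libraries and T cell-low 1 lay among them. The means were 76.0 ± 46.3 (SD, n = 4) and 22.7 ± 11.1 (SD, n = 6), a log2 difference of 1.61 (SE 0.49, adjusted p = 0.0484), or a 3.05-fold higher level on the scale of the scaled count plus 1. This call was close to the threshold and was kept in 2 of 10 fits that left out 1 library, those without T cell-low 1 (adjusted p = 0.00512) and without T cell-high 2 (adjusted p = 0.0301). Without another library the adjusted p was 0.0504 to 0.142. The 3′ end of Ccne2 overlaps that of Ints8 on the other strand, and whether counting used strand is not given. Ints8 had 36.2 ± 8.10 and 30.8 ± 16.5 scaled counts in the 2 groups (log2 difference 0.43, adjusted p = 0.529).

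Ccne1, the gene of the other E-type cyclin, had a mean below 10 and was outside the main test (with no filter, log2 difference 1.37, unadjusted p 0.0472, adjusted p 0.185). Its values were 4.33, 8.07, 12.2 and 20.4 scaled counts in T cell-low 1 to 4, against 0.999 to 11.5 in the T cell-high libraries. T cell-low 3 and 4 lay above every T cell-high library, and T cell-low 1 and 2 lay within their range.

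D-type cyclins, which link growth signals to CDK4 and CDK6, had lower values in part of the T cell-low livers, and none passed the test. Ccnd1 (chromosome 7, 144929931 to 144939925) had 785, 39.3, 227 and 78.9 scaled counts in T cell-low 1 to 4, against 411 to 602 (median 552) in T cell-high libraries. The highest and the 3 lowest of the 10 values were thus all from T cell-low livers. The log2 difference was -1.76 (SE 0.60, adjusted p = 0.0666), and without T cell-low 1 it was -2.54 (adjusted p = 9.5e-04). Ccnd2 (chromosome 6, 127125162 to 127152193) had 587, 164, 312 and 206 in T cell-low livers, against 273 to 718 in T cell-high livers (-0.62, SE 0.35, adjusted p = 0.221). Ccnd3 (chromosome 17, 47505051 to 47599691) had 333, 113, 92.0 and 244 in T cell-low livers, against 202 to 518 in T cell-high livers (-0.99, SE 0.36, adjusted p = 0.0820). The groups overlapped for all 3 genes, and T cell-low 1 had the highest T cell-low value each time. Leaving out that library called Ccnd2 (-0.97, adjusted p = 0.0266) and Ccnd3 (-1.31, adjusted p = 0.0123) as well. Without T cell-high 2 the adjusted p of Ccnd3 was 0.0439. The 3′ ends of these genes overlap other genes on the opposite strand (LTO1 for Ccnd1, Gm43126 for Ccnd2 and Bysl for Ccnd3).

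The kinases of this transition showed small or uncertain differences. Cdk4 had 147 ± 37.1 against 116 ± 23.1 scaled counts (log2 difference 0.32, 95% interval -0.20 to 0.85). Cdk6 had 210.1 ± 43.0 against 187 ± 27.4 (0.15, 95% interval -0.29 to 0.60). Cdk2, the partner of cyclin E, had 11 ± 7.05 against 18.6 ± 8.90 (-0.80, 95% interval -1.90 to 0.29). For Cdk4 and Cdk6 the intervals exclude a doubling in either direction, and for Cdk2 a halving is within the interval.

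Tk1 fell, and it was the 1 member of the 28 tested whose groups did not overlap. Its product, thymidine kinase 1, salvages thymidine for DNA synthesis. Tk1 (chromosome 11, 117815526 to 117826092) had 174, 83.6, 92.8 and 102 scaled counts in T cell-low 1 to 4, against 219, 226, 289.6, 222, 426 and 345 in T cell-high 1 to 6. The highest T cell-low value, that of T cell-low 1, was below the lowest T cell-high value. Groups did not overlap in 7.39% of all genes tested, 3.37% with T cell-low above and 4.02% with T cell-low below. The means were 113 ± 41.2 (SD, n = 4) and 288 ± 84.1 (SD, n = 6), a log2 difference of -1.35 (SE 0.27, adjusted p = 0.0151), so that the level was 2.56-fold higher in T cell-high livers. The call was kept in 8 of 10 fits that left out 1 library and lost without T cell-low 2 (adjusted p = 0.0615) and without T cell-low 4 (adjusted p = 0.0527). Leaving out T cell-high 1, 3, 5 and 6 together gave -1.04 (adjusted p = 0.527), a fit in which 0 genes were called at all and 1027 had an unadjusted p below 0.05. The 3′ end of Tk1 overlaps Gm20708 on the other strand.

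**Figure D2:**
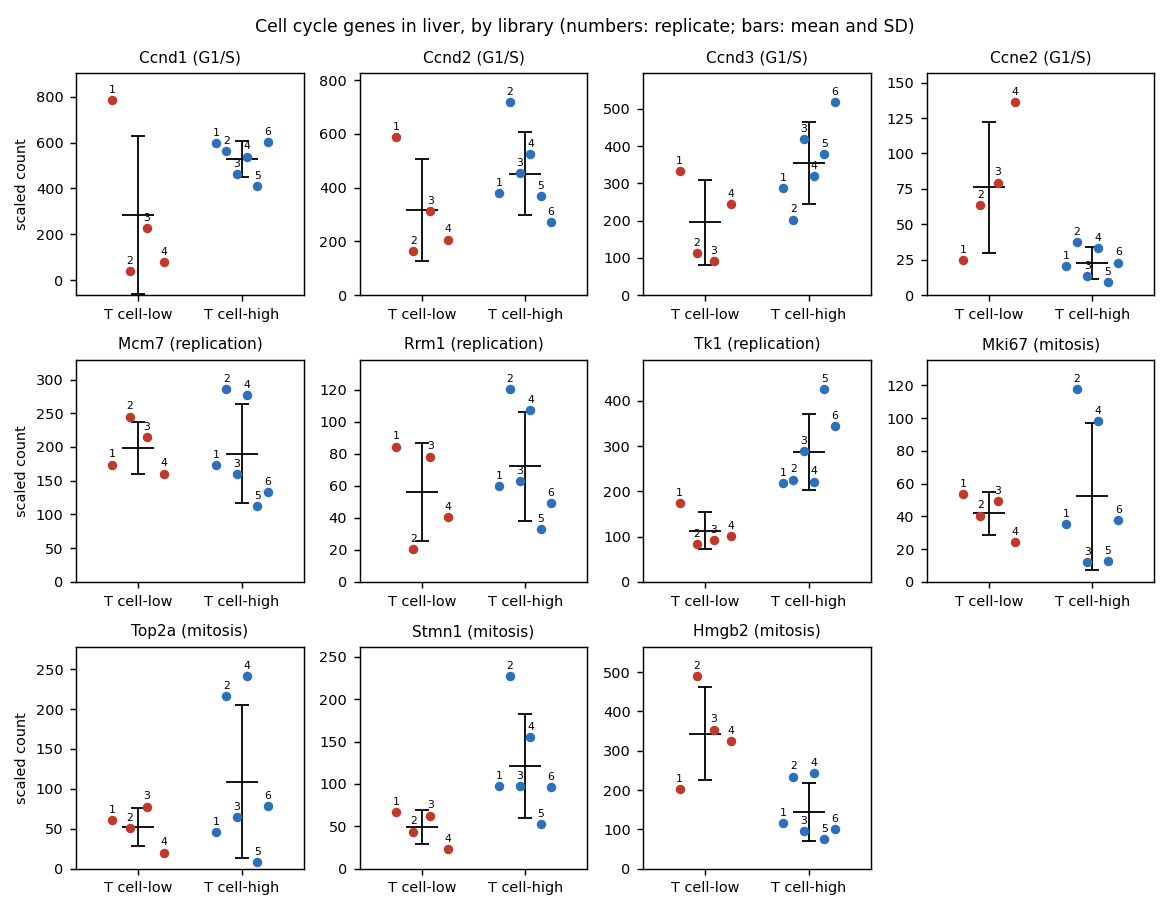
Scaled counts (vertical axis) of 11 members in each library, by group; each point is a library with its replicate number, and bars are the mean and SD of the group (n = 4 and n = 6). Tk1 is separate between the groups, Ccne2 and Hmgb2 overlap through T cell-low 1, and Mki67 and Top2a are highest in T cell-high 2 and 4.

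The other enzymes of nucleotide supply did not pass, although Tyms was close to the threshold. Tyms encodes thymidylate synthase, which makes dTMP by the de novo route. It had 26.2, 3.73, 18.6 and 4.88 scaled counts in T cell-low 1 to 4, against 25.8 to 43.5 (median 30.3) in T cell-high libraries. T cell-low 1 was just above the lowest T cell-high value, that of T cell-high 4, and the other 3 were below it (log2 difference -1.56, SE 0.49, adjusted p = 0.0511). It passed without T cell-low 1 (adjusted p = 0.00672), with a pseudocount of 5 (0.0478) and with equal totals (0.0450). Rrm1, the large subunit of ribonucleotide reductase (chromosome 7, 102441695 to 102469771), had 84.5, 20.5, 78.3 and 40.7 against 32.9 to 121 scaled counts (-0.42, SE 0.44, adjusted p = 0.515). Rrm2, the small subunit, had 0.873, 43.8, 19.3 and 53.5 in T cell-low 1 to 4, against a narrow range of 16.7 to 29.6 in T cell-high libraries (-0.37, 95% interval -2.01 to 1.27). Its T cell-low values ran from the lowest to the highest of all 10 libraries.

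The MCM2-7 complex is the helicase that opens DNA at origins, and none of its 6 genes was called. Mcm2 had 9.14, 2.30, 3.30 and 3.99 scaled counts in T cell-low livers, against 6.76 to 23.8 in T cell-high livers (log2 difference -1.43, SE 0.52, adjusted p = 0.0775), and it passed without T cell-low 1 (adjusted p = 0.0245) and without T cell-high 2 and 4 (adjusted p = 0.0462). Mcm5 had 22.0, 20.6, 3.62 and 0 against 4.82 to 25.6 (-1.19, SE 0.82, adjusted p = 0.314). Both were low in T cell-low 3 and 4, and only Mcm2 was also low in T cell-low 2. Mcm4 (-0.52, SE 0.58) and Mcm6 (-0.45, SE 0.35) had negative differences with intervals that cross 0. Mcm3 (-0.03, 95% interval -0.69 to 0.63) and Mcm7 (0.13, 95% interval -0.48 to 0.74) were centred near 0. Mcm7 (chromosome 5, 138164583 to 138172422) had 174, 245, 215 and 160.4 in T cell-low livers, against 112 to 286 in T cell-high livers. Against T cell-high 2 and 4 alone its difference was -0.52, so its sign depends on which T cell-high libraries enter. Its value is also uncertain because 31.0% of the 50-base words at its 3′ end occur in Gm5487.

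Licensing and fork genes gave no call in the main test. Pcna, the sliding clamp of DNA polymerase, had 34.4 ± 8.14 against 54.9 ± 14.9 scaled counts (log2 difference -0.64, SE 0.29, adjusted p = 0.135). Over the alternative fits its lowest adjusted p was 0.0495, and it was 0.0597 or more where 1 library was left out. Cdt1, which loads the MCM helicase, had 17.6 ± 8.32 against 12.3 ± 7.08 (0.56, SE 0.55, adjusted p = 0.483). Gmnn, whose product geminin holds CDT1 in check, had 20.3 ± 4.83 against 20.5 ± 5.80, with a 95% interval of -0.71 to 0.71. In replication as a whole 1 of 13 genes was called, against 12.8% of all genes. Of the 13 differences 11 were negative, Mcm2 among them, with a median of -0.45, against 5531 of 11110 over all genes. The 11 include Mcm3 (-0.03) and Gmnn (-0.0003), which were near 0, and Rrm2 (-0.37). The sign of these genes changed with the library left out, from -0.91 to 0.71 for Rrm2.

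Promoters of 28 of the 36 members were in the RefSeq table of promoter sequences (build GRCm38.p6, 250 bases before to 50 after each gene start). Ccnd1, Ccnd2, Ccne2, Mcm4, Gmnn, Ccna2, Aurkb and Stmn1 were not. The replication genes are shown first because they are textbook targets of E2F, whose binding site is often written TTTGGCGC. This motif, searched as TTTGGCGC and its reverse complement GCGCCAAA, was found in 4 of 11 replication promoters, 0 of 5 G1/S promoters, 0 of 12 mitosis promoters and 0.585% of the promoters of all 27025 genes. Each window below has 30 bases, 5′ to 3′ on the strand of the gene, with the motif in capitals.
Mcm3 (chr1:20820263-20820292, minus strand): cgggaaaacttgggaagtTTTGGCGCcaag
Mcm5 (chr8:75109349-75109378, plus strand): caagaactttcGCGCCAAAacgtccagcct
Mcm6 (chr1:128359734-128359763, minus strand): gattggacgggTTTGGCGCgaagtagctca
Cdt1 (chr8:122568035-122568064, plus strand): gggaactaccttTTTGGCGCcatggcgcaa
None of the 4 genes with this motif was called, and their log2 differences ran from -1.19 (Mcm5, 95% interval -2.96 to 0.58) to 0.56 (Cdt1, 95% interval -0.62 to 1.75).

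Among the 8 tested mitosis genes 1 rose, Hmgb2, which is 12.5% against 12.8% of all genes. HMGB2 is a DNA-bending chromatin protein that is abundant in dividing cells. Hmgb2 (chromosome 8, 57511907 to 57515999) had 203, 490.1, 354 and 325 scaled counts in T cell-low 1 to 4, against 117, 234, 96.6, 242, 74.5 and 101 in T cell-high 1 to 6. T cell-low 2, 3 and 4 lay above all T cell-high libraries, and T cell-low 1 lay below T cell-high 2 and 4. The means were 343 ± 118 (SD, n = 4) and 144 ± 74.0 (SD, n = 6), a log2 difference of 1.32 (SE 0.36, adjusted p = 0.0360), or a 2.5-fold higher level. It was kept in 3 of 10 fits that left out 1 library, those without T cell-low 1, T cell-high 2 and T cell-high 4, and otherwise the adjusted p was 0.0732 to 0.125. Against T cell-high 2 and 4 alone the difference was 0.46. At its 3′ end 35.5% of the 50-base words occur in 7 other genes, so reads of copies may be mixed. The neutrophil, ductal and stellate sums given above were higher in the same group without overlap, and the erythroid sums with overlap, and their part in this difference was not tested.

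Stmn1, which encodes the microtubule-destabilising protein stathmin, had values on the other side. Stmn1 (chromosome 4, 134468320 to 134473843) had 67.2, 43.9, 62.6 and 23.5 scaled counts in T cell-low 1 to 4, against 97.6, 227, 97.9, 155, 53.0 and 96.8 in T cell-high 1 to 6. Only T cell-high 5 lay within the T cell-low range. The log2 difference was -1.24 (SE 0.40, adjusted p = 0.0543), which did not pass, and it passed without T cell-low 1 (-1.43, adjusted p = 0.0230). Its 3′ end shares 35.5% of its words with Gm11223.

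The markers most used for proliferation, Mki67 and Top2a, did not pass the test between the groups. Mki67 encodes the Ki-67 protein of the mitotic chromosome surface (chromosome 7, 135689784 to 135716361). It had 53.4, 40.5, 49.2 and 24.2 scaled counts in T cell-low 1 to 4, against 35.1, 118, 12.1, 98.3, 12.5 and 37.9 in T cell-high 1 to 6 (log2 difference 0.12, 95% interval -1.18 to 1.43, adjusted p = 0.902). Top2a encodes topoisomerase II alpha, which untangles sister chromatids (chromosome 11, 98992943 to 99024189). It had 61.1, 50.6, 77.8 and 20.3 in T cell-low livers, against 46.0, 216, 65.0, 241, 7.96 and 78.2 in T cell-high libraries (-0.54, 95% interval -2.18 to 1.11, adjusted p = 0.641). For both genes T cell-high 2 and 4 were the highest 2 libraries and T cell-high 3 and 5, or T cell-high 5 alone, were lower than every T cell-low library. The intervals are wide enough to include a doubling and a halving.

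The same libraries led in many mitosis genes. The highest of the 10 libraries was T cell-high 2 or 4 in 11 of all 15 mitosis members, and in 7 of the 8 that were tested (87.5%). Among replication members it was 7 of 13 (53.8%) and among tested G1/S members 1 of 7 (14.3%), against 15.6% of all genes tested. Both libraries lay above each of the other 8 in Mki67, Top2a and Stmn1 among the tested mitosis members and in Mcm4, Mcm6, Mcm7 and Rrm1 among the replication members. These are 7 of 28 tested members, or 25%, against 3.95% of all genes tested. Plk1 and Ube2c had means of 6.42 and 8.60 over the other 8 libraries and passed the filter through T cell-high 2 and 4. The share of 87.5% thus depends in part on the filter. The pattern was noticed in these values and described after they were seen, and no test was made of it.

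The levels in these 2 libraries are given as a description, since the genes were named for being high there. Top2a had a mean of 229 scaled counts in T cell-high 2 and 4 and 50.9 ± 25.6 (SD, n = 8) in the other 8 libraries. For Mki67 it was 108 against 33.1 ± 15.6. Plk1, the polo-like kinase of mitotic entry, had 14.5 and 41.4 in T cell-high 2 and 4 and 2.12 to 21.3 elsewhere. Cdc20, the activator of the anaphase-promoting complex, had 59.6 in T cell-high 4 but 20.1 in T cell-high 2, within the range of the rest (1.049 to 28.4). Birc5, which encodes survivin, and Ube2c, the ubiquitin-conjugating enzyme of mitotic exit, were likewise highest in T cell-high 4 alone, at 65.8 and 28.03. T cell-high 4 therefore led in more of these genes than T cell-high 2 did.

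**Figure D3:**
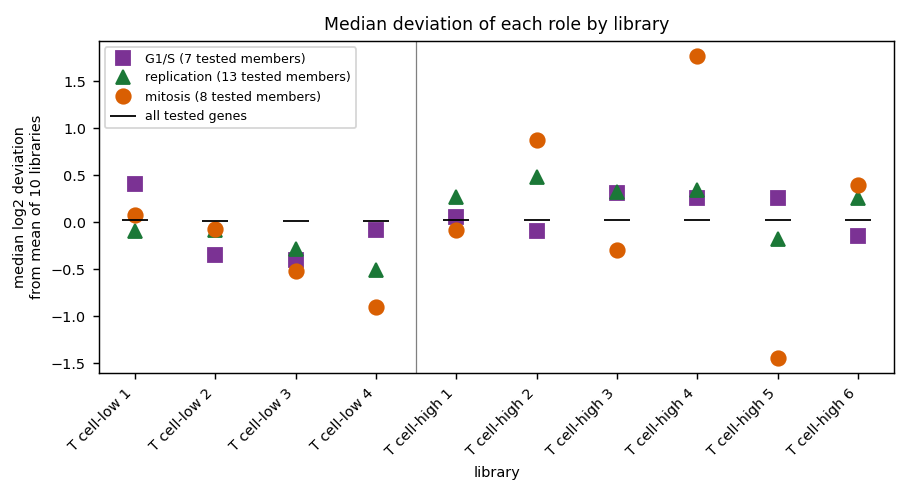
Median deviation of the tested members of each role from their mean over the 10 libraries (vertical axis, log2 of the scaled count plus 1), by library; black bars are the median of all genes tested. The mitosis genes span -1.44 in T cell-high 5 to 1.77 in T cell-high 4, a wider range than in the 4 T cell-low libraries (-0.90 to 0.08).

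By library, the median deviation of the mitosis genes was 1.77 in T cell-high 4 and 0.88 in T cell-high 2, and 0.39, -0.08, -0.29 and -1.44 in T cell-high 6, 1, 3 and 5. In T cell-low 1 to 4 it was 0.08, -0.07, -0.51 and -0.90. The T cell-low libraries thus lay inside the T cell-high range. The replication genes followed a narrower course, from -0.51 in T cell-low 4 to 0.48 in T cell-high 2, and the median over all genes tested was within 0.03 of 0 in every library. The sums of some cell type markers differed along with part of this order. The summed hepatocyte markers were lowest in T cell-high 2 (240888) and T cell-high 4 (318549), against 368558 to 536970 in the other libraries. Alb followed this order (68422 and 131954, against 144745 to 295529), as did Serpina1a (29131 and 28306, against 32288 to 52457). Ttr did not, with 92618 and 88470 in these libraries and 61758 to 117948 elsewhere. Cps1 was lowest in T cell-high 6 (3140) and Hnf4a in T cell-low 3 (509). Apoa1 was lowest in T cell-high 2 (44861) but had 65448 in T cell-high 4, within the 50886 to 154084 of the rest. Tat was lowest in T cell-high 4 (225) but had 844 in T cell-high 2, within the 245 to 1804 of the rest. The summed level of 8 Kupffer cell and macrophage markers was highest in T cell-high 4 (9432) and lowest in T cell-high 5 (2266), with 6369 in T cell-high 2, but T cell-low 1 (7719), T cell-high 6 (7036) and T cell-low 3 (6495) were also above T cell-high 2. All 8 of these markers were above 0 in every library, and Cd5l and Csf1r made up most of the sum. Cd68 did not follow this order, with 37.2 and 43.4 in T cell-high 2 and 4 but 55.2 in T cell-high 5. Marco was highest in T cell-high 4 (1308) but had 203 in T cell-high 2. The part of these cells in the mitosis values was not tested.

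**Figure D4:**
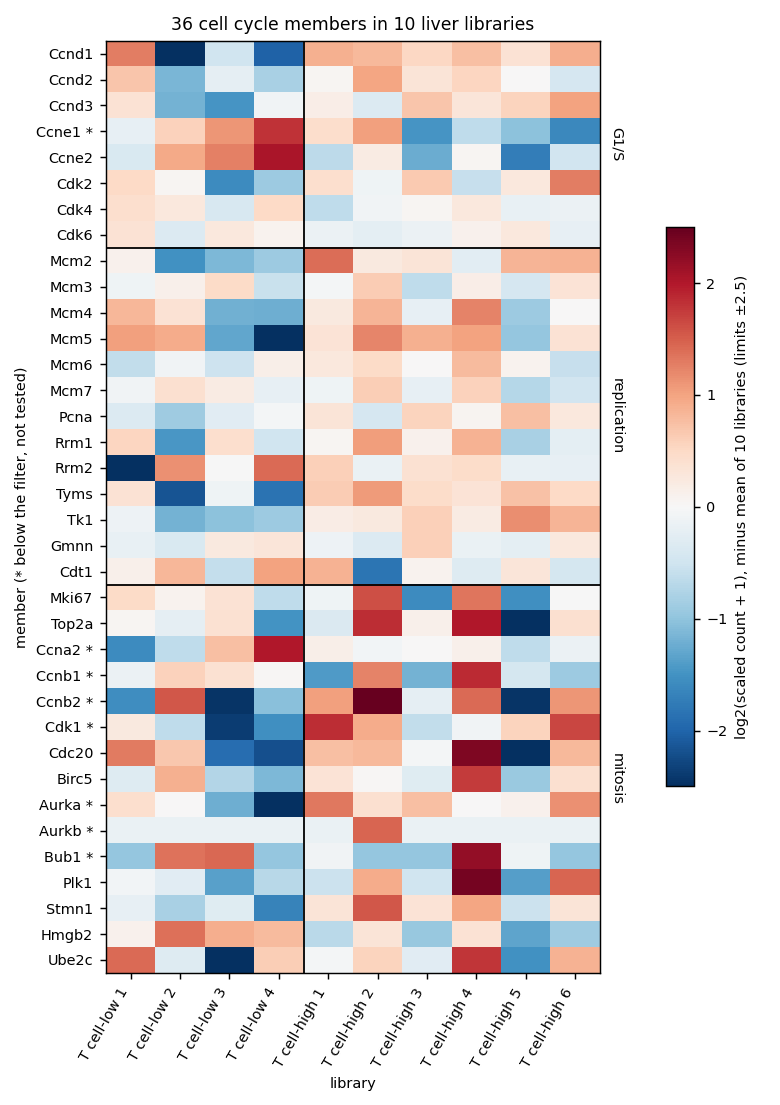
Each of the 36 members (rows, by role) in each library (columns), as the log2 of the scaled count plus 1 minus the member's mean over the 10 libraries; colours saturate at ±2.5 and stars mark members below the filter. In the mitosis block red cells gather in T cell-high 2 and 4, whereas Ccnd1 is blue in T cell-low 2 and 4 and Ccne2 and Hmgb2 are red in T cell-low 2, 3 and 4.

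The 7 mitosis members below the filter were outside the main test. Ccnb1 and Ccnb2 encode the B-type cyclins that drive entry into mitosis. Ccnb1 had 10.7 and 17.1 scaled counts in T cell-high 2 and 4 and at most 6.39 elsewhere, and its 3′ end shares 34.8% of its words with other genes. Ccnb2 had 32.5 in T cell-high 2 and 13.7 in T cell-high 4, with 14.9 in T cell-low 2 and 10.8 or less in the rest. Cdk1, the kinase they activate, departed from this order, being highest in T cell-high 1 (17.9) and T cell-high 6 (15.5). Aurka, a kinase of spindle poles, was also highest in those libraries (18.3 and 16.0). Ccna2, a cyclin of S phase and G2, was highest in T cell-low 4 (21.4) and at 0.879 to 8.39 in the others. The checkpoint kinase gene Bub1 was listed at 0 in 5 libraries and did not exceed 7.96, and Aurkb, a kinase of the centromere, was listed at 0 in 9 of 10 libraries with 2.06 in T cell-high 2. With no filter on low values limma called none of these 7 (adjusted p 0.102 for Cdk1, 0.144 for Aurka and up to 0.828 for Ccna2), although Cdk1 (-1.79, unadjusted p 0.0151) and Aurka (-1.56, unadjusted p 0.0297) were below 0.05 before adjustment.

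The promoters of the mitosis genes are shown because many of these genes were high in the same libraries. Their known element is the cell cycle genes homology region, TTTGAA, through which the DREAM complex acts. TTTGAA or its reverse complement TTCAAA was found in 9 of 12 mitosis promoters (75.0%), 1 of 11 replication promoters, 0 of 5 G1/S promoters and 20.2% of the promoters of all genes. CCAAT or its reverse complement ATTGG, the motif of the factor NF-Y, was found in 11 of the 12 mitosis promoters, 8 of 11 replication promoters and 2 of 5 G1/S promoters, against 41.1% of all genes. The 2 motifs and TTTGGCGC do not contain one another. In the 30-base windows below the TTTGAA match nearest to the gene start is in capitals.
Mki67 (chr7:135716460-135716489, minus strand): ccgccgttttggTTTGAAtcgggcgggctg
Top2a (chr11:99024195-99024224, minus strand): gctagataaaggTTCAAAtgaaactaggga
Plk1 (chr7:122159453-122159482, plus strand): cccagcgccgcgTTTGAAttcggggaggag
Cdc20 (chr4:118437344-118437373, minus strand): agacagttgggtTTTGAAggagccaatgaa
Ccnb2 (chr9:70421533-70421562, minus strand): agcggcgcggtaTTTGAAtcgcggaccggg
Ube2c (chr2:164769888-164769917, plus strand): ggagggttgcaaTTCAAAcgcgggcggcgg
Cdk1 (chr10:69352910-69352939, minus strand): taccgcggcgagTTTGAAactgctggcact
Aurka (chr2:172370521-172370550, minus strand): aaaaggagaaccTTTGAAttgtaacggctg
Hmgb2 (chr8:57511801-57511830, plus strand): ggactctccgggTTTGAAtaatcctccaca
The motif was present both in Top2a and Mki67, which were highest in T cell-high 2 and 4, and in Hmgb2, Cdk1 and Aurka, which were highest elsewhere. A match of letters is a description and not a site of binding.

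The 250 bases before the start of Top2a are given whole because, in scaled counts, its mean in T cell-high 2 and 4 exceeded that in the other 8 libraries by more than in any other mitosis member. They hold CCAAT in either orientation 6 times and TTTGAA in either orientation 2 times, all in capitals.
Top2a (chr11:99024190-99024439, minus strand): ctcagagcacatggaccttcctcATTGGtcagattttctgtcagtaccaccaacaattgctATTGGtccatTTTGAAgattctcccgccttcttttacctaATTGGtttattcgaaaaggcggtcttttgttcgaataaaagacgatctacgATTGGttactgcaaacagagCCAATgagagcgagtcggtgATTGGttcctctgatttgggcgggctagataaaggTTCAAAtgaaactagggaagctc

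Other genes of the same pathways, 167 in all, gave a like share of calls. Of the 103 that could be tested 4 rose, 7 fell and 92 did not pass, which is 10.7% against 12.8% of all genes. Their median log2 difference was -0.14. Some passed the filter through 1 group, such as Myc (T cell-high mean 3.67) and Cdkn2d and Ttk (T cell-low means 4.83 and 3.25). The share and the median thus describe the genes that could be tested and not all 167. Without T cell-low 2 or without T cell-low 4 none of them was called, in fits that called 0.982% and 1.41% of all genes and gave 2622 and 3063 genes an unadjusted p below 0.05.

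Of 23 tested G1/S regulators 1 rose and 1 fell, which is 8.70% against 12.8% of all genes. E2f6, a repressor of the E2F family, had 13.2, 8.65, 11.6 and 8.20 scaled counts in T cell-low livers, against 16.9 to 49.99 in T cell-high livers, with no overlap (log2 difference -1.52, SE 0.38, adjusted p = 0.0275). Myc, the growth-promoting transcription factor, had 3.47, 42.6, 24.9 and 119.7 against 0 to 8.27 (2.96, SE 0.90, adjusted p = 0.0484), with T cell-low 1 inside the T cell-high range. Its T cell-high mean was 3.67, so Myc passed the filter only through the T cell-low libraries, where it was high. None of the 5 tested CDK inhibitors passed limma's test, against 12.8% of all genes, and 1 had an unadjusted p below 0.05. Cdkn1a, the p21 inhibitor, had 418, 1678, 668 and 4021 in T cell-low livers, against 762 to 1592 in T cell-high livers (0.05, SE 0.49, adjusted p = 0.956). T cell-low livers held both its lowest and its highest values. Cdkn1b, the p27 inhibitor, had 165 ± 38.5 against 151 ± 43.6 (0.15, SE 0.25, adjusted p = 0.694).

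Of 38 tested replication factors 2 rose and 1 fell, which is 7.89% against 12.8% of all genes. Mcm10, which helps to activate the helicase, had 100.1, 30.5, 39.9 and 39.6 scaled counts in T cell-low livers, against 109 to 166 in T cell-high livers, with no overlap (log2 difference -1.57, SE 0.31, adjusted p = 0.0151). Orc2, a subunit of the origin recognition complex, had 71.9, 183, 94.9 and 145 against 29.2 to 69.3, also with no overlap (1.23, SE 0.32, adjusted p = 0.0314). Pole4, a small subunit of DNA polymerase epsilon, had 293, 2090.2, 824 and 953 against 183 to 573 (1.46, SE 0.45, adjusted p = 0.0494). Orc2 and Pole4, subunits of the origin recognition complex and of DNA polymerase epsilon, were thus both higher, and Mcm10 was lower.

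Of 37 tested mitosis factors 1 rose and 5 fell, which is 16.2% against 12.8% of all genes. Wee1, the kinase that keeps CDK1 inactive, had 37.5, 131, 94.0 and 199.9 scaled counts in T cell-low livers, against 12.1 to 47.5 in T cell-high livers (log2 difference 2.13, SE 0.50, adjusted p = 0.0236). Spc24, a kinetochore subunit, had 43.0 to 60.2 against 72.9 to 230.01, with no overlap (-1.18, SE 0.30, adjusted p = 0.0289). Tuba1b, an alpha tubulin, had 278 ± 222 against 871 ± 312 (-1.90, SE 0.45, adjusted p = 0.0242), although 53.3% of the words at its 3′ end occur in other genes. Anapc11, a subunit of the anaphase-promoting complex, had 308 ± 134 against 522 ± 53.7 (-0.85, SE 0.24, adjusted p = 0.0410). The other two that fell were Pttg1, which encodes securin (-0.70), and the checkpoint gene Bub3 (-0.87), both named after their values were seen. T cell-high 2 or 4 was the highest library in 16 of the 37 genes (43.2%, against 15.6% of all genes), and both lay above the other 8 in 10 of them (27.0%, against 3.95%), namely Ttk, Cenpe, Cenpf, Spc25, Kif20b, Tpx2, Incenp, Ncapg2, Sgo2a and Anapc1. Of the replication factors 6 of 38 did so, and of the G1/S regulators 0 of 23. Ttk, Tpx2 and Sgo2a had 0 to 10.7, 0.809 to 11.9 and 2.33 to 16.8 scaled counts in the other 8 libraries. Such low genes could reach the filter through T cell-high 2 and 4. The shares of the 37 mitosis factors thus depend in part on the filter.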

How the data were processed

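The deposited table holds a signal per gene and library, gene counts that the authors brought to one common depth (here "scaled count"). Libraries were prepared with a 3′ end kit, per the labels' protocols, and STAR, DESeq2 and mm10 are named, with no versions, in the submitters' processing notes. The sources used here name neither counter nor annotation. Values are not whole numbers and whole reads were not read back, so the depth in reads is unknown and no counting interval is given.

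Groups came from the sample titles. Genes with a mean of at least 10 were tested (11110) on log2(scaled count + 1) with limma 3.58.1 in R 4.3.3 (variance trend, group only, 10 libraries, 13.1 degrees of freedom), two-sided, Benjamini-Hochberg adjusted over all genes tested, called below 0.05. A fold change on this scale understates the change of low genes. The members and lists were chosen with earlier results of these data known. Described in full are called members, Mki67, Top2a and the 3 tested members of highest mean per role, plus up to 4 called genes per pathway list, or the 2 of highest mean where none was called. Other genes were chosen once their values were known. GENCODE vM21 (GRCm38, the assembly of mm10) gave the positions, matched for 36 of 36 members. For 4 members, 20% or more of all 50-base words from the final 400 transcript bases also lie in other genes, and their 3′ ends are called shared. The script was tested on simulated data. Alternatives covered the pseudocount, filter, scaling (trimmed mean of M values, TMM, or equal totals), robust option, libraries and a replicate block. Plots used matplotlib 3.10.9 (Python 3.11.15).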

Additional observations from a re-analysis of the deposited data

How the results depend on the processing

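Single libraries decided the counts. Leaving out each library in turn gave 0 to 2 members called higher, 0 to 7 called lower, 109 to 3633 genes called over the whole table (1420 with all libraries), and 0 to 10 higher and 0 to 18 lower among the other cell cycle genes. The most came without T cell-low 1 (32.7% of genes called) and the fewest without T cell-low 2. With T cell-high 1, 3, 5 and 6 left out 0 genes passed limma's test (1027 had an unadjusted p below 0.05), 0 members in either direction and 0 other cell cycle genes in either direction, and the member median was -1.08. With T cell-high 2 and 4 left out, an alternative added after seeing the data, there were 2628 genes, 2 members higher and 4 lower, 9 other cell cycle genes higher, and a member median of -0.21. Members called higher were 1 with no filter, with a mean of at least 50 and with equal totals, and members called lower were 3 with equal totals and 2 with a pseudocount of 5. Other cell cycle genes called higher were 2 with a pseudocount of 0.5 and with no filter.

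Between libraries of the same replicate number, 1 to 4, deviations over genes correlated at 0.104, 0.211, -0.0988 and -0.151. Between libraries of different numbers they correlated at -0.241 to 0.289, so these values do not settle whether the libraries are paired. With the replicate block, on libraries 1 to 4 of each group, 285 genes were called, 0 members in either direction, and 1 higher and 2 lower among the other cell cycle genes. On the same libraries without the block, a fit added after seeing the data, 21 genes, 0 members and 0 other cell cycle genes were called.

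The alternatives gave 240 values for the 11 members described in full. Of these, 194 kept direction and call, 28 lost the call, 7 gained one and 11 changed sign. Only Ccne2, Hmgb2 and Tk1 were called in the main fit and could lose a call, with 21, 22 and 22 of these values. All 28 losses were therefore among those genes. Leaving out 1 library at a time gave -0.0049 (no T cell-high 5) to 0.26 for Mcm7, which was -0.52 without T cell-high 1, 3, 5 and 6, and -0.14 in both fits on libraries 1 to 4. For Mki67 the same gave -0.18 (no T cell-high 3 or no T cell-high 5) to 0.45, with -0.013 when T cell-low 1 was left out, and it was -1.40 without T cell-high 1, 3, 5 and 6, and -0.24 in both fits on libraries 1 to 4. Top2a was 0.32 without T cell-high 2 and 4. The cause was not tested.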
